A study of Mus musculus with 6 samples.

Results

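A set of 10 genes of natural killer (NK) cell killing and recognition were followed in sorted mouse pro-B cells, an early stage of B cell development in bone marrow. The members were Klrd1, Klrk1, Ncr1, Il2rb, Prf1, Gzma, Gzmb, Ctsw, Nkg7 and Xcl1. They were chosen by name, and all 10 were found, among 17097 genes measured under a single symbol, through 13 of 45037 probe sets. Expression was measured on Affymetrix perfect-match mouse arrays in 3 samples labelled HDAC7 deficient and in 3 wild-type samples, described as biological triplicates. The comparison asks which genes change in early B cells when HDAC7, an enzyme of the histone deacetylase family, is lost. The HDAC7-deficient samples came from mice with a conditional Hdac7 allele, and the labels name neither the Cre driver nor the age, strain or sex of any animal. Cells of both groups were sorted alike as B220+CD43+IgM-, and their RNA was amplified as whole transcriptome before labelling. All levels below are the authors' log2 values, and all differences are HDAC7 deficient minus wild type on that log2 scale.

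NK cells are innate lymphocytes that kill infected or transformed cells by releasing granules that hold perforin and granzymes. Perforin opens the target's membrane, and granzymes are serine proteases that then start its death from inside. Whether the granules are released is set by a balance of activating and inhibitory receptors on the NK cell surface, many of them encoded side by side in the NK gene complex. In mouse bone marrow the B220+CD43+ gate is known to take in some NK lineage and plasmacytoid dendritic cells besides B cell precursors. In such bulk samples, fewer cells of a type and less RNA per cell cannot be told apart.

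The promoters of 7 members are held in the RefSeq promoter table for mouse (GRCm38.p6), namely those of Nkg7, Klrk1, Ncr1, Gzma, Gzmb, Prf1 and Xcl1. The 250 bases before the start of 5 of them are shown 5′ to 3′. The granzyme pair is shown because its values parted mainly on wild-type replicate 3. On the other 5 arrays wild-type replicate 2 was the highest for both genes. Prf1 was the one member whose groups did not overlap, and Xcl1 differed most without wild-type replicate 3. Nkg7 held letters of 3 factor families. Capitals mark matches, on either strand, to TTCNNNGAA (STAT factors), TCACACC (T-box factors), TGTGGT (RUNX factors), AGGAAGT (ETS factors), TGANTCA (AP-1) or the MEF2 letters CTA and TAG with any 4 bases between them. No matches overlap in these windows.
Nkg7 promoter, chr7:43436888-43437137, plus strand: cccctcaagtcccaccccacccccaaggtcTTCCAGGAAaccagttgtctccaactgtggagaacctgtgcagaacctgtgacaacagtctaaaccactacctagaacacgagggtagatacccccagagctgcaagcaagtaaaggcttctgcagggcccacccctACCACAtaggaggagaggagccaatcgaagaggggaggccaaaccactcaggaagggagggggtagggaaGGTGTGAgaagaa
Gzma promoter, chr13:113100982-113101231, minus strand: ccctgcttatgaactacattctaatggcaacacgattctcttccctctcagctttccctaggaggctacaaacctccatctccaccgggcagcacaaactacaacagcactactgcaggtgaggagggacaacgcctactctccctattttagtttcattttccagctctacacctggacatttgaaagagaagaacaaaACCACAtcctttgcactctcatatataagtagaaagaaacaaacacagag
Gzmb promoter, chr14:56262335-56262584, minus strand: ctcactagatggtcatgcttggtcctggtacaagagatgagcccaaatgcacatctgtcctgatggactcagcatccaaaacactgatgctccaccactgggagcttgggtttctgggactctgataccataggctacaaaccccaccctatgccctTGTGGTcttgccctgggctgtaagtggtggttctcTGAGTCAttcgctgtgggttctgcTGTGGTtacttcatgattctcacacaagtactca
Prf1 promoter, chr10:61297586-61297835, plus strand: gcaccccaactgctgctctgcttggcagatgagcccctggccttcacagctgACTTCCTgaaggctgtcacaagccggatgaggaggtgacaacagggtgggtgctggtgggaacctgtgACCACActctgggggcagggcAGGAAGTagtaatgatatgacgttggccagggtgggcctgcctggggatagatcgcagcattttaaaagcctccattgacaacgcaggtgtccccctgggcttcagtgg
Xcl1 promoter, chr1:164935523-164935772, minus strand: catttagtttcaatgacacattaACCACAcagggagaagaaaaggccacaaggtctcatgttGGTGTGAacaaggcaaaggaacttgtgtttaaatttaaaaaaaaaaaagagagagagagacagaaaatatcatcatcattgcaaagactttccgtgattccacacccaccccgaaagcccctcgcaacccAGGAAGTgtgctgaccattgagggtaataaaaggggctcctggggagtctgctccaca

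The RUNX letters TGTGGT stood in the promoters of 7 of 7 matched members, against 15.9% of the 27025 genes with a promoter in the table. In Gzmb they occurred at 93 and 34 bases before the start, and in Gzma on the other strand at 50 bases before it. The AP-1 letters were found in Gzmb alone among the 7, at 58 bases before the start, against 7.82% of all genes. T-box letters were found in Nkg7 and Xcl1 (3.84% of all genes), ETS letters in Prf1 and Xcl1 (8.80%), and STAT letters in Nkg7 (8.13%). The MEF2 letters, included because HDAC7 is known as a partner of MEF2 factors, were in 0 of 7, against 3.70% of all genes. These matches describe letters in a window, and binding was not measured.

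One array, wild-type replicate 3, was unlike the other 5, and the differences of members, named genes and gene lists are therefore given with and without it. Its correlations with the other 5 arrays over all probe sets ran from 0.70 to 0.82, against 0.94 to 0.99 among those 5. For Actb the 3′ probe set exceeded the middle one by 1.69 on this array and by 0.16 to 0.26 elsewhere. It read genes of high signal lower: in the 4275 genes brightest on the other arrays its median distance from the mean of wild-type replicates 1 and 2 was -1.47, while over all genes it was 0.12. Array medians lay between 5.83 and 6.15. Xist divided the arrays across genotypes, with 11.40, 11.27 and 8.51 on HDAC7-deficient replicates 2 and 3 and wild-type replicate 3, and 4.87, 5.38 and 5.17 on HDAC7-deficient replicate 1 and wild-type replicates 1 and 2.

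Hdac7 itself was 9.95, 9.54 and 9.27 on HDAC7-deficient replicates 1 to 3, against 9.06, 9.48 and 7.31 on wild-type replicates 1 to 3. Its level was therefore not reduced in the group labelled as deficient (0.97 ± 0.59 SE, limma adjusted p = 0.399, or 0.31 without wild-type replicate 3). The other Hdac7 probe set was not reduced either, with 0.88 over all arrays and 0.36 without wild-type replicate 3. Neither the deleted exons nor the position of the probes is stated in the labels. These levels therefore cannot tell whether the allele was deleted. Levels of B lineage markers are given beside the labelled cell type, with no level set that they had to reach. The B cell factor Pax5 read 10.28, 9.60 and 9.40 in HDAC7-deficient and 9.18, 9.85 and 7.78 in wild-type cells. Vpreb1, part of the surrogate light chain that marks early B precursors, read 11.48, 10.73 and 10.86 in HDAC7-deficient and 11.53, 11.40 and 9.97 in wild-type cells.

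The mean level of the 10 members lay above the array median on each of the 6 arrays, although no detection call was made. No member differed between the groups by limma's test with or without wild-type replicate 3. With all 6 arrays 9 of the 10 members lay higher on the HDAC7-deficient arrays, Gzmb being the exception, against 48.0% of all genes, and the median difference was 0.78, against -0.03 over all 17097 genes. Without wild-type replicate 3 the median fell to 0.20, against -0.05 over all genes, and 7 members lay higher, against 43.2% of all genes, while Nkg7, Gzma and Gzmb lay lower. None of the 10 passed an adjusted p of 0.05, with values of 0.377 to 0.538 over all arrays and 0.438 to 0.954 without that array. The background was likewise 0% of genes in both fits. At an unadjusted p under 0.05 limma called 0 of 10 members in either fit, against 12.7% of all genes with all arrays and 14.0% without wild-type replicate 3.

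**Figure D1:**
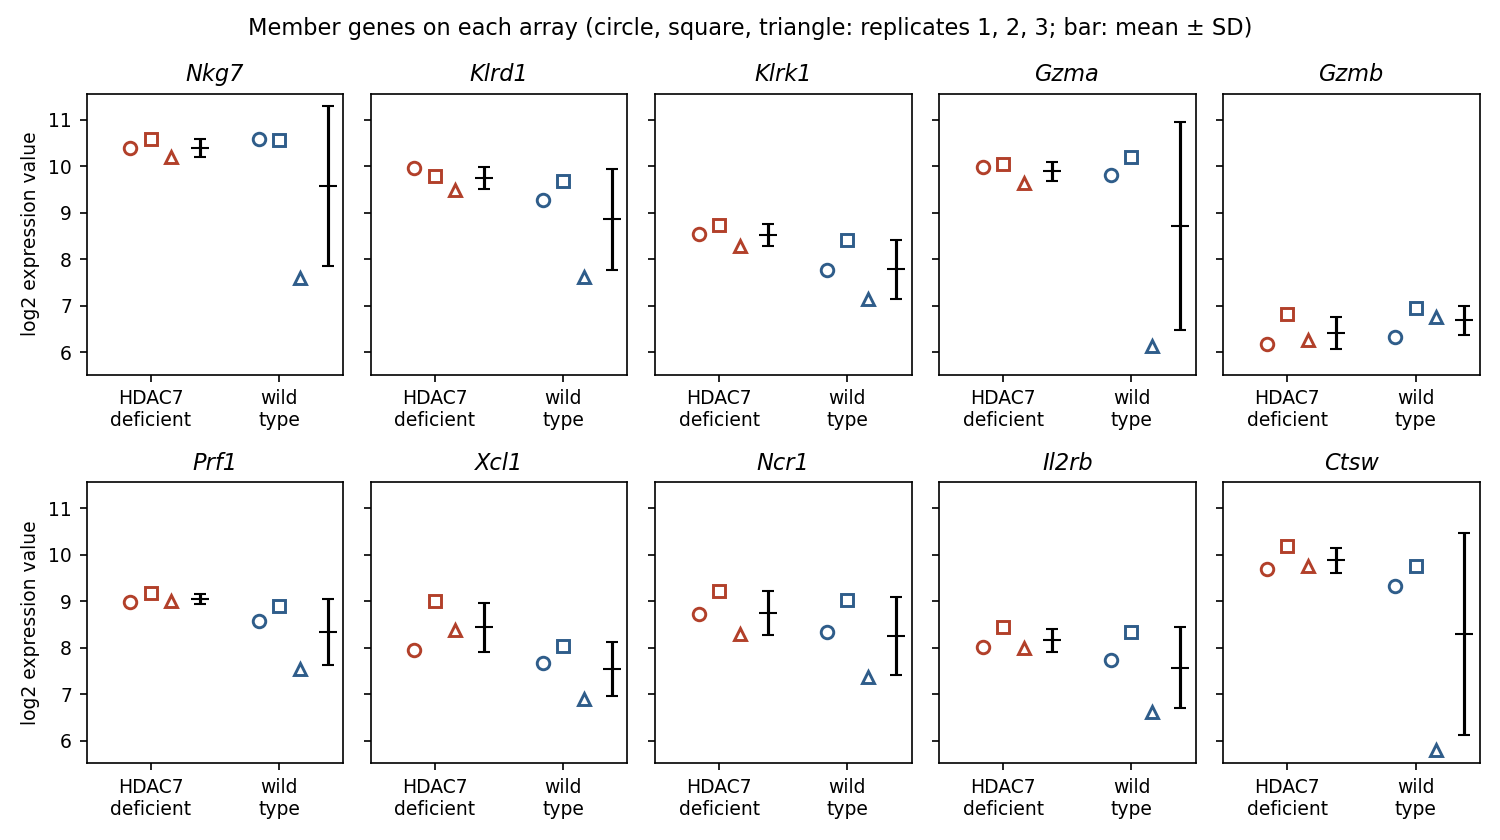
Log2 expression values of the 10 member genes on each array, with HDAC7-deficient samples left and wild-type samples right. Circles, squares and triangles are replicates 1, 2 and 3, and black bars are mean ± SD (n = 3 each). Wild-type replicate 3 is the lowest of the 6 arrays in 9 panels, and the exception is Gzmb.

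The differences of the 3 receptors were smaller once that array was left out. Klrd1 encodes CD94, a lectin-like chain that pairs with NKG2 receptors. It read 9.95, 9.80 and 9.50 in HDAC7-deficient cells, against 9.28, 9.68 and 7.63 in wild-type cells. Wild-type replicate 2 lay inside the HDAC7-deficient range and replicate 1 below it. The difference was 0.89 ± 0.56 (SE) with all arrays and 0.27 ± 0.19 without wild-type replicate 3, where the 95% interval ran from -0.18 to 0.72.

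Klrk1 encodes NKG2D, an activating receptor for stress-induced ligands. In the RefSeq gene table it is the direct neighbour of Klrd1 on chromosome 6, with 0 protein-coding genes between them. Its probe set read 8.53, 8.75 and 8.28 in HDAC7-deficient cells and 7.77, 8.42 and 7.14 in wild-type cells. Wild-type replicates 1 and 2 lay 0.65 apart, more than the 0.47 spanned by the 3 HDAC7-deficient arrays. The difference was 0.74 ± 0.39 with all arrays and 0.42 ± 0.26 without wild-type replicate 3, with an interval of -0.19 to 1.03.

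Ncr1 encodes NKp46, an activating receptor used as a defining marker of NK cells. It read 8.73, 9.22 and 8.29 in HDAC7-deficient cells, against 8.35, 9.04 and 7.37 in wild-type cells. The 3 HDAC7-deficient arrays spanned 0.93, and wild-type replicates 1 and 2 lay inside that span. Of the 3 receptors its difference without wild-type replicate 3 was the smallest, 0.06 ± 0.32 with an interval of -0.67 to 0.79, against 0.50 ± 0.49 with all arrays.

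Il2rb encodes the beta chain shared by the receptors for interleukin 2 and interleukin 15, the cytokine NK cells need to survive. Its probe set of highest signal read 8.02, 8.45 and 8.003 in HDAC7-deficient cells and 7.73, 8.34 and 6.62 in wild-type cells. Wild-type replicate 2 again lay between HDAC7-deficient replicates. The difference was 0.59 ± 0.47 with all arrays and 0.12 ± 0.27 without wild-type replicate 3. Il2rb has 3 probe sets, and the other 2 gave 0.69 and 0.91 with all arrays, and 0.29 and 0.24 without that array. All 3 probe sets put HDAC7-deficient replicate 2 highest and wild-type replicate 3 lowest.

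With all arrays the granule genes held both the largest differences and the only negative one. Prf1 encodes perforin. It read 8.97, 9.17 and 9.01 in HDAC7-deficient cells, against 8.58, 8.89 and 7.55 in wild-type cells. Prf1 was the only member whose groups did not overlap, 1 of 10, against 9.45% of all genes that were higher on every HDAC7-deficient array, or 11.8% without wild-type replicate 3. The gap between the lowest HDAC7-deficient and the highest wild-type array was small next to the spread within wild type. The difference was 0.71 ± 0.41 with all arrays and 0.32 ± 0.19 without wild-type replicate 3 (interval -0.12 to 0.75). The other Prf1 probe set did not show that separation, with 6.46, 6.73 and 6.28 in HDAC7-deficient and 6.24, 6.89 and 5.89 in wild-type cells, a difference of 0.15 with all arrays and of -0.07 without wild-type replicate 3.

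Gzma and Gzmb encode granzymes A and B, proteases of different cleavage specificity. Gzma read 9.97, 10.05 and 9.65 in HDAC7-deficient cells, against 9.82, 10.19 and 6.13 in wild-type cells. Wild-type replicate 2 was the highest array for Gzma and replicate 3 lay far below all others, at -3.88 relative to the mean of replicates 1 and 2. The difference was accordingly 1.18 ± 1.02 with all arrays, and it turned to -0.11 ± 0.18 without that array, with an interval of -0.52 to 0.29.

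Gzmb read 6.18, 6.81 and 6.27 in HDAC7-deficient cells and 6.33, 6.95 and 6.76 in wild-type cells. It was the only member for which wild-type replicate 3 lay inside the range of the other 5 arrays, and it was also the member whose difference hardly depended on that array. The difference was -0.26 ± 0.28 with all arrays and -0.22 ± 0.28 without it. Its interval with all arrays ran from -0.92 to 0.40, and both groups spanned about the same range.

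Ctsw encodes cathepsin W, a cysteine protease made mainly by NK and cytotoxic T cells. It read 9.70, 10.19 and 9.76 in HDAC7-deficient cells, against 9.32, 9.75 and 5.79 in wild-type cells. Its difference with all arrays was the largest of the 10, 1.59 ± 0.995 with an interval of -0.76 to 3.95, and wild-type replicate 3 lay at -3.75 relative to the mean of the other wild-type arrays. Without that array the difference was 0.34 ± 0.20 (interval -0.12 to 0.81).

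Nkg7 encodes a membrane protein of cytotoxic granules that takes part in their release. It read 10.39, 10.58 and 10.19 in HDAC7-deficient cells and 10.58, 10.56 and 7.60 in wild-type cells. Apart from wild-type replicate 3 the arrays lay within 0.39 of each other, with both wild-type arrays among the upper values. The difference was 0.81 ± 0.80 with all arrays and -0.18 ± 0.13 without wild-type replicate 3, with an interval of -0.48 to 0.13.

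Xcl1 encodes lymphotactin, a chemokine that NK cells and cytotoxic T cells release and that attracts dendritic cells bearing the receptor XCR1. It read 7.94, 9.002 and 8.37 in HDAC7-deficient cells, against 7.67, 8.04 and 6.89 in wild-type cells. HDAC7-deficient replicates 2 and 3 lay above every wild-type array, while HDAC7-deficient replicate 1 lay below wild-type replicate 2. Xcl1 had the smallest p of the 10 in both fits and the largest difference without wild-type replicate 3, yet it did not pass: 0.90 ± 0.42 with all arrays (limma adjusted p = 0.377) and 0.58 ± 0.32 without that array (limma adjusted p = 0.438, interval -0.16 to 1.32). Its 3 HDAC7-deficient arrays also spanned the most of any member, 1.06.

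**Figure D2:**
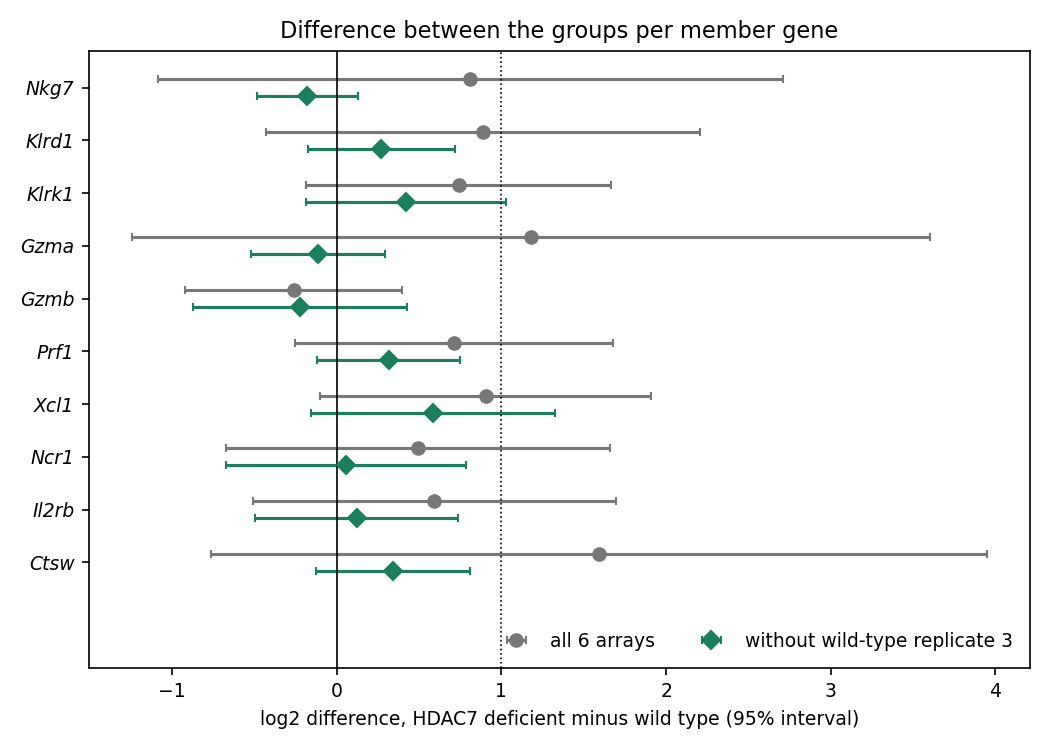
Log2 difference between HDAC7-deficient and wild-type cells for each member, with 95% intervals from limma. Grey circles use all 6 arrays, green diamonds leave out wild-type replicate 3, the solid line is 0 and the dotted line is a doubling. Every interval spans 0, and without wild-type replicate 3 the intervals of 8 members end below the dotted line.

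The intervals give the sizes of difference compatible with these values, not the smallest difference that the test could have called. With all arrays only Gzmb had an interval that ended below a doubling, a log2 difference of 1. Without wild-type replicate 3 a doubling lay outside the interval for 8 of 10 members, all but Klrk1 and Xcl1, against 90.5% of all genes. These intervals are not adjusted for the number of genes and rest on 3 arrays against 2. The p-values set each group difference against the spread between these samples, moderated over all genes. The labels call the replicates biological without naming separate animals, so that spread may not be one between animals.

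The shift of the members with all arrays moved with the signal of wild-type replicate 3. That array was the lowest of 6 for 9 of the 10 members, against 37.8% of all genes and 87.7% of the 4275 brightest genes. Of the 10 members 9 belong to those 4275, Gzmb being the exception. These brightest genes as a whole had a median difference of 0.59 between the groups with all arrays and of 0.06 without wild-type replicate 3, beside 0.78 and 0.20 for the members. The distance of wild-type replicate 3 from the mean of replicates 1 and 2 ran from -3.88 for Gzma, -3.75 for Ctsw and -2.97 for Nkg7 to -0.96 for Klrk1 and 0.11 for Gzmb. Among the 4275 the 10th and 90th percentiles of that distance were -2.98 and -0.10, so Gzma and Ctsw lay beyond the lower of them. The part of RNA quality in the members' values was not tested.

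**Figure D3:**
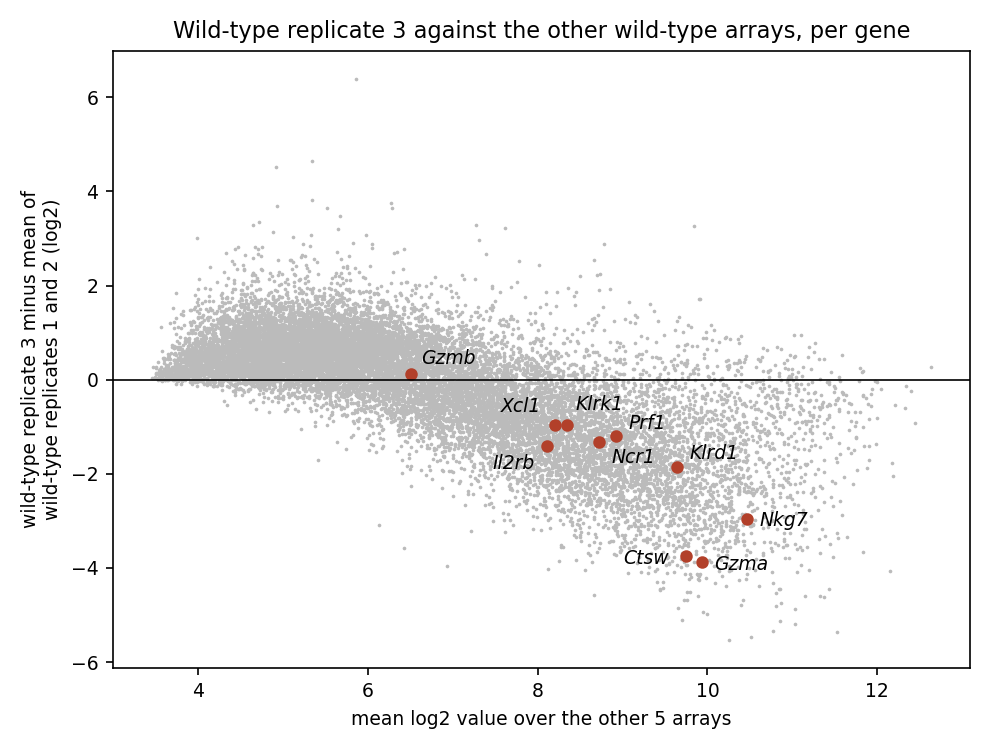
Difference between wild-type replicate 3 and the mean of wild-type replicates 1 and 2 (log2) against the mean log2 value on the other 5 arrays, for each of 17097 genes (grey) and the 10 members (red). Gzmb sits at 0.11, and Ctsw and Gzma at -3.75 and -3.88, in a cloud that runs downward with rising signal.

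The members also varied together among the other 5 arrays, within genotypes as much as between them. Their mean level was 8.84, 9.20 and 8.73 on HDAC7-deficient replicates 1 to 3, and 8.54 and 8.99 on wild-type replicates 1 and 2. HDAC7-deficient replicate 2 was the highest of these 5 arrays for 7 of 10 members, against 17.3% of all genes and 29.1% of the 4275 brightest. Wild-type replicate 2 exceeded replicate 1 for 9 members, against 52.5% of all genes, by a median of 0.41. Genes of high signal in general also read lower on wild-type replicate 1. For the genes brightest by their mean over the 6 arrays, the median level was 8.99 on that array and 9.26 on wild-type replicate 2. On the HDAC7-deficient arrays it was 9.14 to 9.31. The part of this in the members' values was not tested. The mean over the HDAC7-deficient arrays exceeded wild-type replicate 1 for 9 members and wild-type replicate 2 for 5.

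Within the arrays of low Xist, HDAC7-deficient replicate 1 stood against wild-type replicates 1 and 2. There 6 of 10 members lay higher, with a median of 0.06 and a range of -0.46 (Gzmb) to 0.48 (Klrd1). Within the arrays of high Xist, where wild type is represented by replicate 3 alone, 9 lay higher, with a median of 1.70 and a range of -0.22 (Gzmb) to 4.18 (Ctsw). No share of all genes is given for either comparison. That wild-type array was the lowest of 6 for 87.7% of the 4275 brightest genes, to which 9 members belong. With the Xist division as a block 3 members had an unadjusted p under 0.05 in limma, Klrd1, Klrk1 and Ctsw, against 42.6% of all genes, and these 3 lay higher, as did 15.7% of all genes at that level. None passed after adjustment (lowest adjusted p = 0.0975), against 0% of all genes. With array weights estimated by limma 7 of 10 members passed, against 49.4% of all genes. These weights were 0.830, 4.12 and 0.998 for HDAC7-deficient replicates 1 to 3, and 8.68, 0.471 and 0.0716 for wild-type replicates 1 to 3. The heaviest array of each group was thus HDAC7-deficient replicate 2, the highest of the 5 arrays other than wild-type replicate 3 for 7 of the 10 members, and wild-type replicate 1, the lowest of those 5 for 6 members.

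Markers of other cells that the gate could hold moved over the same arrays. Plasmacytoid dendritic cell markers (7 of 9 measured) had a mean level of 9.86 to 10.45 in HDAC7-deficient and 7.14 to 9.95 in wild-type cells, and their log2 values summed to 69.0 to 73.1 in HDAC7-deficient and 49.98 to 69.6 in wild-type cells. All 7 lay higher with and without wild-type replicate 3, and their mean level was highest on HDAC7-deficient replicate 2. T lineage markers (11 of 12 measured) had mean levels of 7.17 to 7.67 in HDAC7-deficient and 6.93 to 7.36 in wild-type cells, with 7 of 11 higher in both fits. Their log2 values summed to 78.8 to 84.4 in HDAC7-deficient and 76.3 to 81.0 in wild-type cells. Cd3e, a chain of the T cell receptor complex, read 6.41, 6.75 and 6.50 in HDAC7-deficient and 5.98, 6.38 and 6.33 in wild-type cells. Bcl11b, from the same list, read 5.52, 5.69 and 5.83 in HDAC7-deficient and 6.06, 5.85 and 6.81 in wild-type cells. The groups did not overlap for either gene, in opposite directions. B lineage markers (13 of 15 measured) had mean levels of 10.20, 9.42 and 9.37 on HDAC7-deficient replicates 1 to 3 and 9.74, 9.98 and 8.50 on wild-type replicates 1 to 3. With all arrays 10 of the 13 lay higher in HDAC7-deficient cells, with a median difference of 0.23. Without wild-type replicate 3 only 3 of the 13 did, and the median turned to -0.26, while that of the members was 0.20.

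The order of the arrays thus differed between the lists. By mean level, the NK members and the T lineage, plasmacytoid, macrophage and erythroid markers were highest on HDAC7-deficient replicate 2. The erythroid mean there, 7.37, was near the 7.34 on HDAC7-deficient replicate 3. B lineage and basophil and mast cell means were highest on HDAC7-deficient replicate 1. The neutrophil mean was highest on HDAC7-deficient replicate 3, at 11.11 against 11.10 on HDAC7-deficient replicate 2. Within each list some genes peaked on other arrays. Macrophage and monocyte markers (8 of 9 measured) averaged 6.65 to 7.16 in HDAC7-deficient and 6.53 to 6.73 in wild-type cells, and neutrophil markers (9 of 9) 10.67 to 11.11 and 9.20 to 11.07. Basophil and mast cell markers (5 of 6) averaged 6.95 to 8.33 in HDAC7-deficient and 6.88 to 8.12 in wild-type cells, and erythroid markers (5 of 7) 5.92 to 7.37 and 6.43 to 6.91. The median difference was -0.01 with all arrays and 0.16 without wild-type replicate 3 for macrophage and monocyte markers, and 0.73 and 0.24 for neutrophil markers. It was -0.09 and -0.44 for basophil and mast cell markers, and 0.07 and 0.19 for erythroid markers. The arrays deposit no value of 0, so no marker can be called absent. The part of other cell types in the members' values was not tested.

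**Figure D4:**
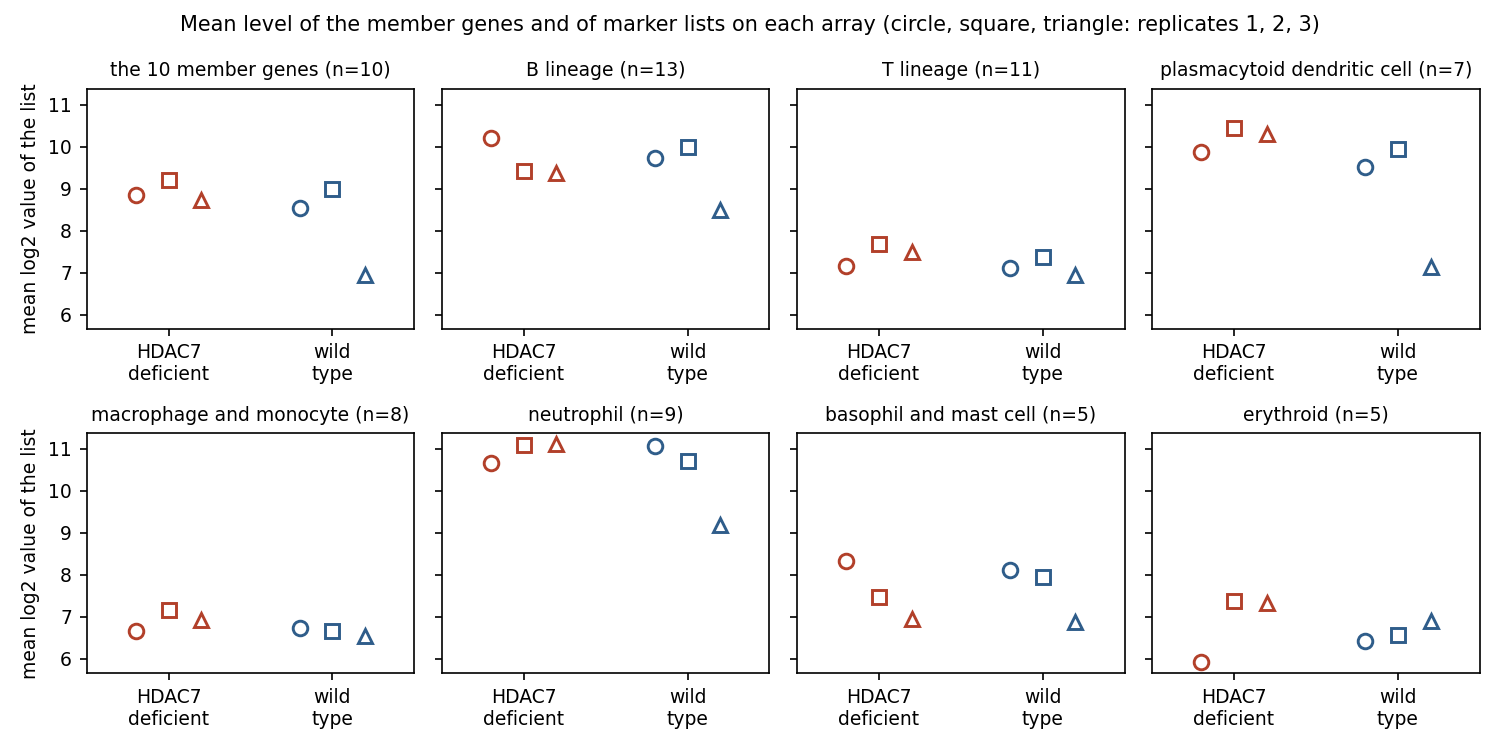
Mean log2 value of the 10 member genes and of each marker list on every array, with HDAC7-deficient samples left and wild-type samples right; circles, squares and triangles are replicates 1, 2 and 3. The member genes peak on HDAC7-deficient replicate 2 at 9.20, and B lineage markers on HDAC7-deficient replicate 1 at 10.20.

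Genes that work with the members were read from 6 lists, of which 85 of 97 genes were measured. None passed in either fit, against 0% of all genes. At an unadjusted p under 0.05 limma put 7 higher and 1 lower with all arrays, against 3.52% and 9.14% of all genes, and 9 higher and 1 lower without wild-type replicate 3, against 5.19% and 8.84%. The median difference of the 85 was 0.37 with all arrays and 0.13 without that array. As with the members, most of the median difference was seen only with wild-type replicate 3 included.

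Other NK receptors (17 measured) had a median of 0.09, or 0.14 without wild-type replicate 3. Klrc2, which encodes the activating partner NKG2C of CD94, read 4.97, 4.80 and 4.65 in HDAC7-deficient cells and 4.29, 4.48 and 4.49 in wild-type cells, a difference of 0.39 ± 0.14, or 0.42 without wild-type replicate 3. These groups did not overlap, at signals below the array medians. Cd96, an adhesion receptor of NK and T cells, differed by 0.62 ± 0.30, or 0.36 without wild-type replicate 3. Cd244a, which encodes the receptor 2B4, differed by 0.79 ± 0.43, or 0.39. Crtam, a receptor of activated NK and T cells, differed by -0.56 ± 0.30, or -0.23. It was highest on wild-type replicate 3 and read below the array medians on the other arrays.

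Adaptors and kinases behind the receptors (11 measured) had a median of 0.39, or 0.20 without wild-type replicate 3. The kinases Syk and Fyn and the exchange factor Vav1 differed by 1.79 ± 1.23, 1.26 ± 0.85 and 1.60 ± 1.06, values that came to 0.21, 0.20 and 0.26 without that array. Fcer1g, an adaptor that NKp46 signals through, differed by 0.41 ± 0.30, or 0.32. Only Fcer1g among these 4 kept most of its difference.

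Granule contents and release genes (21 measured) had a median of 0.06, or 0.02 without wild-type replicate 3. Stx11, a syntaxin required for granule fusion, read 7.86, 7.97 and 7.62 in HDAC7-deficient cells against 7.14, 7.26 and 7.09 in wild-type cells. Its groups did not overlap, and its difference of 0.66 ± 0.25 was close to the 0.62 ± 0.22 found without wild-type replicate 3. Lyst, a regulator of lysosome size, differed by 1.30 ± 0.59, or 0.60 without that array. The granzyme genes Gzmc and Gzmg differed by -0.33 ± 0.14 and -0.33 ± 0.19, or -0.23 and -0.19. Both read below the array medians on every array and were highest on wild-type replicate 3.

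NK and innate lymphoid transcription factors (11 measured) had a median of 0.56, or 0.13 without wild-type replicate 3. Nfil3, a factor needed for NK cell development, read 7.25, 8.47 and 8.35 in HDAC7-deficient cells and 6.79, 7.23 and 5.89 in wild-type cells. HDAC7-deficient replicate 1 lay just above wild-type replicate 2, and the other HDAC7-deficient arrays lay well above both. Its difference was 1.38 ± 0.47, or 1.01 ± 0.38 without wild-type replicate 3. Runx3, a RUNX factor of cytotoxic lymphocytes, differed by 1.49 ± 0.67, or 0.71 ± 0.28. Rora differed by 0.56 ± 0.25, or 0.35, and Zbtb16, which encodes PLZF, by -0.65 ± 0.25, or -0.43. Zbtb16 was highest on wild-type replicate 3.

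Cytokine receptors and kinases (12 measured) had a median of 0.76, or 0.14 without wild-type replicate 3. Il12rb2, a chain of the interleukin 12 receptor, read 6.35, 7.20 and 6.13 in HDAC7-deficient cells and 5.55, 5.84 and 5.75 in wild-type cells, and its difference was 0.84 ± 0.31 with all arrays and 0.86 ± 0.32 without that array. Il18rap, Stat4 and Jak3 differed by 0.88 ± 0.52, 0.76 ± 0.50 and 0.75 ± 0.51, or by 0.33, 0.23 and 0.22 without it. Il12rb2 thus differed from these 3 in that its value did not depend on wild-type replicate 3.

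Ligands and partners (13 measured) had a median of 0.42, or 0.33 without wild-type replicate 3. The interferon gamma gene Ifng, a main NK cytokine, read 6.20, 8.21 and 7.76 in HDAC7-deficient cells, against 5.62, 5.95 and 5.96 in wild-type cells. Its difference was 1.55 ± 0.51, or 1.61 ± 0.52 without wild-type replicate 3. Its high values were those of HDAC7-deficient replicates 2 and 3, both of high Xist. Wild-type replicate 3, also of high Xist, read 5.96, near the 5.95 of wild-type replicate 2, which is of low Xist. The chemokine genes Ccl3 and Ccl4 differed by 1.27 ± 0.30 and 1.22 ± 0.29, or by 1.17 and 1.16 without wild-type replicate 3. They are made by macrophages as well as NK cells. Xcr1, the receptor for the Xcl1 product, differed by -0.57 ± 0.28, or -0.29. It too was highest on wild-type replicate 3 and below the array medians on the other arrays. For each of the related genes named here the limma adjusted p was 0.377 or higher with all arrays, and without wild-type replicate 3 it was 0.153 or higher.

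**Figure D5:**
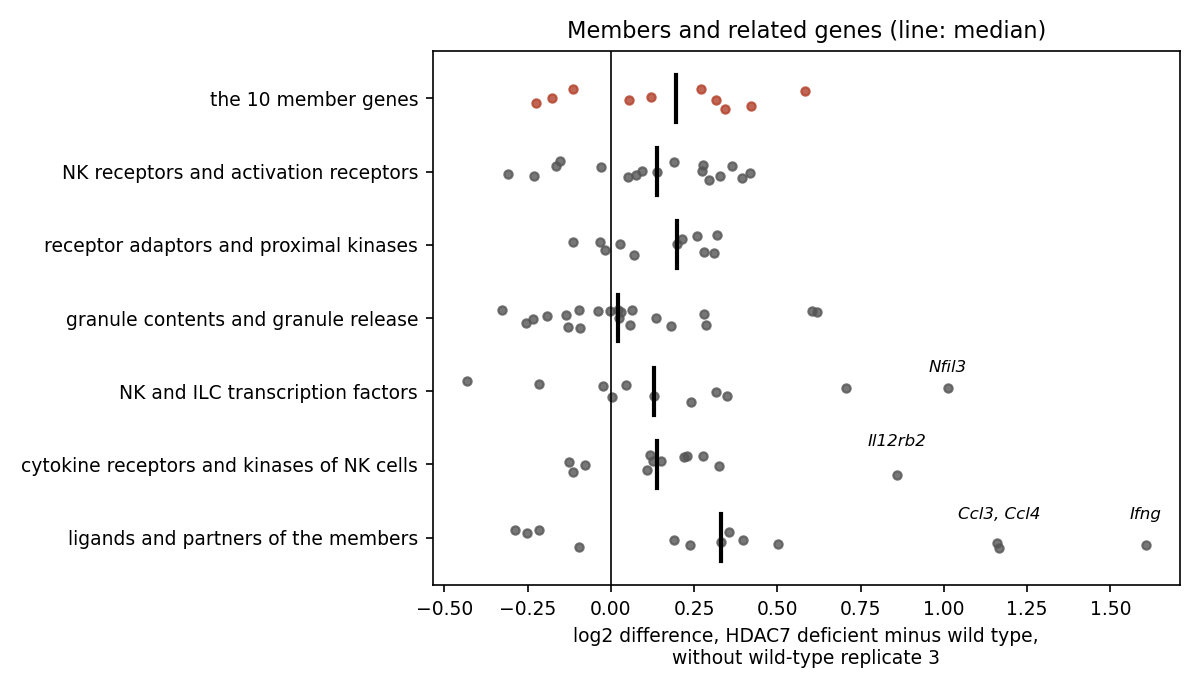
Log2 difference between HDAC7-deficient and wild-type cells without wild-type replicate 3, for each member (red) and each measured gene of 6 related lists (grey), with the median of each as a line. Most genes lie near 0, and Ifng (1.61), Ccl3 (1.17), Ccl4 (1.16), Nfil3 (1.01) and Il12rb2 (0.86) lie furthest to the right.

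The genes whose profile over the 6 arrays lay nearest to the members' mean profile were Letmd1, Tmem268, Lefty1, Csnk1e and Tmem203. Likeness was the root mean square difference between profiles centred on their own means, which was 0.03 to 0.06 log2 units for these 5 genes. The median was 0.78 over the genes compared. The members and genes with clone symbols, such as those ending in Rik, were left out of the ranking and the median. Without wild-type replicate 3 the nearest were Aspscr1, Tmem268, Letmd1, Tnk2 and Dpp9, at 0.02 to 0.04 against a median of 0.29. Among the members Il2rb was nearest to the shared profile over those 5 arrays, at 0.07, and Xcl1 the furthest, at 0.31. These distances rest on few arrays and describe only how values moved over the arrays, in size as well as in order.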

How the data were processed

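The authors deposited log2 values for each probe set on each array, and how they were normalized is not given in the sources used here. Their range gave the scale. All 6 columns were assigned to their samples. Of 45141 probe sets 104 controls were set aside. A platform annotation gave 1 symbol for 28898 probe sets, several for 551 and none for 15588, and 28689 were updated by Entrez number through a RefSeq table (GRCm38.p6). Each of 17097 genes was represented by its probe set of highest mean over the 6 arrays.

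The comparison used limma 3.58.1 under R 4.3.3 (moderated variances with an intensity trend, two-sided, Benjamini-Hochberg over all 17097 genes, threshold 0.05), and probe sets in the same fit over 45037. Intervals are at 95%. Dim probe sets were kept. Signals of different genes were not ranked, because probe sets respond differently. The fit was tested on simulated data. The number of arrays limits the precision.

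Members, gene lists, tests and alternatives were chosen with earlier results of these data known. The text names all 10 members, the 4 genes of smallest p in each of 6 related lists, and the 5 genes nearest in profile. Arrays were divided by Xist level, which is not a label. Plots were made in Python 3.11.15 with matplotlib 3.10.9. The alternatives were leaving out each array, blocks, other scalings, filters, variance models, array weights and the mean over probe sets.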

Additional observations from a re-analysis of the deposited data

How the results depend on the processing

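The 10 members were recomputed under 17 alternatives, which gave 170 differences. Of these 156 kept their direction and stayed short of an adjusted p of 0.05, 7 turned direction and 7 passed. Many of the 156 could not have turned. The replicate block, the filters of dim genes and the other variance models left each difference unchanged. The mean over probe sets did so for the 8 members with 1 probe set. All 7 turns came where wild-type replicate 3 was left out or had the lowest array weight. Leaving out each array in turn gave ranges of -0.18 to 1.31 for Nkg7, -0.11 to 1.92 for Gzma, 0.34 to 2.32 for Ctsw and 0.58 to 1.16 for Xcl1, and the negative values came without wild-type replicate 3. The lesser Prf1 probe set turned to -0.0709 without that array. Blocking on the Xist division with wild-type replicate 3 omitted put Nkg7 at -0.17, Gzma at -0.0304 and Il2rb at -0.0153. That setting repeats the comparison within the arrays of low Xist, where HDAC7-deficient replicate 1 stood alone. Array weights were the only setting in which members passed: Klrd1 at 0.48, Klrk1 at 0.84, Prf1 at 0.53, Xcl1 at 1.06, Ncr1 at 0.62, Il2rb at 0.56 and Ctsw at 0.73. Hdac7 passed at 0.48 and 8452 genes in all, while Nkg7 turned to -0.064 and Gzmb to 0.26. limma's default estimate of these weights did not converge, and its gene-by-gene estimate was used. In the other 16 alternatives the lowest adjusted p of a member was 0.0975.

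The replicate number was used as a block, although same-numbered arrays did not all deviate together (correlations of 0.0964, 0.208 and 0.476). The replicate block gave the members adjusted p-values of 0.250 to 0.504 and called 1 gene, Hspa1b. The Xist block without wild-type replicate 3 called 4, which were Fos, Fosb, Jun and H1f2, named after their values were seen. Genes at an unadjusted p under 0.05 numbered 2165 with all arrays and 626 to 9614 over the alternatives, and the cause was not tested.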
